A study of Rattus norvegicus with 2 samples.

Results

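Mitochondrial ribosomal proteins build the ribosome that works inside mitochondria. They were taken as every gene whose symbol in the array's probe annotation was Mrpl or Mrps followed by a number, which gave 66 of 15037 named genes, 42 named for the large subunit (Mrpl) and 24 for the small subunit (Mrps). Transcript levels were read on whole-transcript oligonucleotide arrays, 1 per group. The cells were keratinocytes, the main cells of the epidermis, taken from newborn rats and kept in culture. The control group carried the genotype label "control" and the title abbreviation NC, and is described as non-treated. Whether it received another siRNA, the transfection reagent alone or neither is not given in the labels. The other group, siTet2/3, had been transfected by lipofection with an siRNA against Tet2 and an siRNA against Tet3 at 1 µM each. Vitamin C was added to both groups 24 h after transfection and left for 12 h, at a dose the labels do not state.

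The mitochondrial ribosome translates the few messenger RNAs encoded by mitochondrial DNA, all of which specify subunits of the respiratory chain and ATP synthase. Its RNAs come from mitochondrial DNA, whereas all its proteins are encoded in the nucleus, made in the cytosol and imported. Some of these proteins have counterparts in bacterial ribosomes and others are found only in mitochondria. The siRNAs target TET enzymes, which oxidise the methyl group on cytosine in DNA and which vitamin C activates.

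Values are log2 signals per probe set. A background floor of 5.04 log2 units was set from 1206 chemoreceptor genes, most of which are silent outside sensory tissue, as the 95th percentile of the higher of their 2 values. To be counted as higher or lower, a gene had to pass the floor on at least 1 array and to differ by at least 1.5-fold between them. With 1 array per group no difference has a replicate error and no test could be made, so "higher" and "lower" describe these arrays only. The number of arrays limits the precision of every value, and signals of different probe sets were set against the floor, not ranked against each other. In bulk RNA, fewer cells of a type and less RNA per cell cannot be told apart. Of 12 keratinocyte markers, 8 had a named probe and all 8 passed the floor, among them Krt14 (18.54 log2 units in the control and 18.70 in siTet2/3) and Tp63 (13.15 and 12.75). Krt15, another basal keratin gene, read 8.78 and 11.26 log2 units, or 5.59-fold higher in siTet2/3, and only 0.0123% of all genes above the floor had a higher difference; the other 7 were within 1.5-fold. None of 8 fibroblast markers and none of 2 Merkel cell markers passed it. Above the floor were 1 of 5 endothelial, 1 of 5 melanocyte, 1 of 3 muscle and 2 of 7 immune markers with a named probe. The largest difference among those of other cell types was that of Cd14, at -0.76 log2 units. The part of Krt15 and Cd14 in the values below was not tested. No named probe was found for any of the 3 Tet genes, and the extent of the knockdown was not analysed here.

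Promoter sequences of the members with the largest differences in each direction are shown first, to set the letters upstream of these genes beside their values. They come from RefSeq (GRCr8), 5′ to 3′ in the direction of the gene. Capitals mark matches, on either strand, to the ETS motif CCGGAAG, which GABP and related factors bind, and to the NRF1 motif, GCGC and TGCGC with any 1 letter between them; both factors are known for binding upstream of nuclear genes for mitochondria. The first pair, 200 bases up to the start, belong to the members with the lowest differences, siTet2/3 minus control.
Mrpl57, chr15:36086257-36086456, plus strand: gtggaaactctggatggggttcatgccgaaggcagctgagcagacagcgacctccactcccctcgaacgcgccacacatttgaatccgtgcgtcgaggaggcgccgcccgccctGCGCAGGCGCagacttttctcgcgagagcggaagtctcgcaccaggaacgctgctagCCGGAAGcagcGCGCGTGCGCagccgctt
Mrpl17, chr1:169575700-169575899, minus strand: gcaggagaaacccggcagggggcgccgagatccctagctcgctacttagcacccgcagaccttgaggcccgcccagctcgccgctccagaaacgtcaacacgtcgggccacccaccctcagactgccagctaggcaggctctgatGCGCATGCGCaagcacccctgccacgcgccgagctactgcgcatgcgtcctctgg
The next pair, also 200 bases long, belong to the 2 members that were counted as higher.
Mrpl23, chr1:207116730-207116929, plus strand: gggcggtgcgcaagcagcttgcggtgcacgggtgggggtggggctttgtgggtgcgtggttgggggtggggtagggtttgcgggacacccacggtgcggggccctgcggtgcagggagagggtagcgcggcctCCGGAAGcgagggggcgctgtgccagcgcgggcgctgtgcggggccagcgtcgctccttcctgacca
Mrpl20, chr5:171690998-171691197, plus strand: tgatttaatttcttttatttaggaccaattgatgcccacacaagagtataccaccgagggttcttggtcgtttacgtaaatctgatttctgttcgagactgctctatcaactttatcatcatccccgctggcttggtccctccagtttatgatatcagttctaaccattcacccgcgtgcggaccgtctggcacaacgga
The last sequence holds the 233 bases between the starts of Mrpl46 and Mrps11, which lie head to head on opposite strands, and is written in the direction of Mrpl46.
Mrpl46, chr1:142117031-142117263, minus strand: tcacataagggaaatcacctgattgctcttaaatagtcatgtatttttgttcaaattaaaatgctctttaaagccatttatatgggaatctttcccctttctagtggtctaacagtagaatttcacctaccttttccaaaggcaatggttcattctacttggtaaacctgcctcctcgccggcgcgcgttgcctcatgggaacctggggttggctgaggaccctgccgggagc

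By median and share lower, the mitochondrial ribosomal protein genes lay close to all genes on these arrays, with a smaller share higher. Of the 66 members, 62 passed the floor. Among these, 9 were at least 1.5-fold lower on the siTet2/3 array (14.5%), against 13.2% of all 8103 named genes above the floor. Only 2 were at least 1.5-fold higher (3.23%), against 8.63% of all genes, and 51 were neither. Their median difference, siTet2/3 minus control, was -0.09 log2 units, close to the -0.05 of all genes. The middle 50% of all genes lay between -0.36 and 0.24, and that of the members between -0.40 and 0.09. Their robust SD (the scaled median absolute deviation) was 0.42 log2 units, against 0.45 for all genes. Of the 62, 40 were below 0 (64.5%), against 55.0% of all genes, and 35 (56.5%) after centring on the median difference of all genes. A difference of less than 0.1 log2 units in either direction was seen in 18 members and of less than 0.3 in 35. Genes within these limits were not counted over the whole array.

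**Figure D1:**
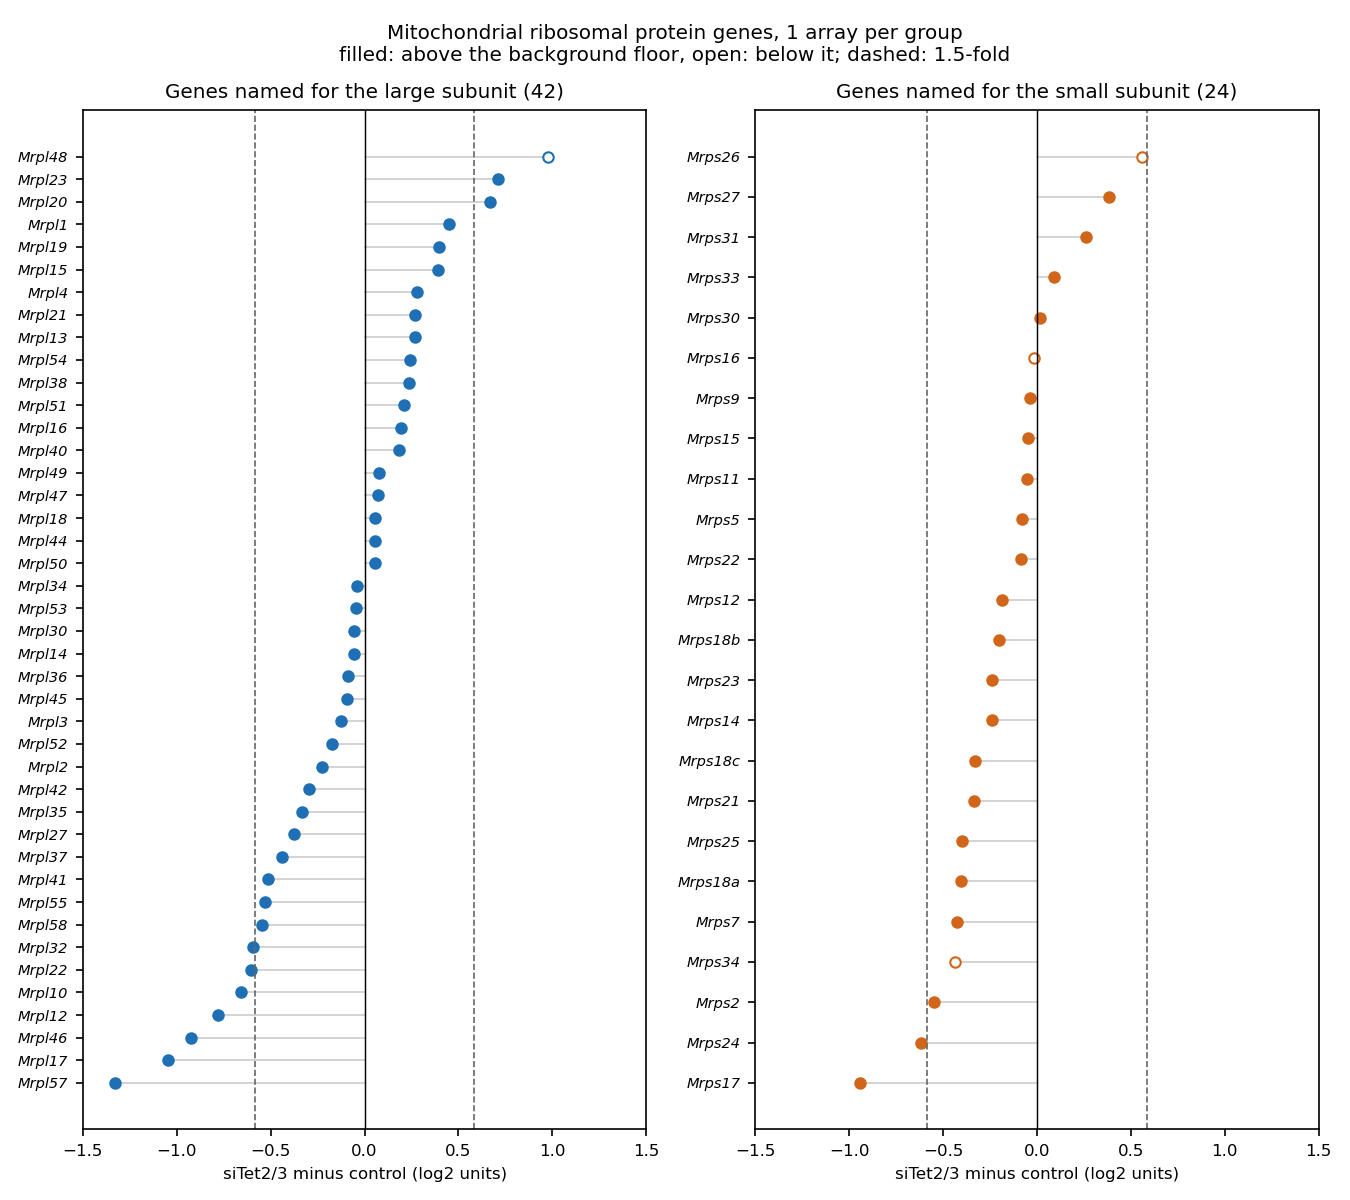
Difference between the arrays (siTet2/3 minus control, log2 units) for each of the 42 genes named for the large subunit (left) and the 24 named for the small subunit (right), 1 array per group and so without error bars. Filled points passed the background floor on at least 1 array, open points did not, and dashed lines mark 1.5-fold. Mrpl57 lies at -1.33, the lowest value, and most members lie between the dashed lines.

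The lowest member was Mrpl57, a small protein of the large subunit found only in mitochondria, which read 11.32 log2 units in the control and 9.99 in siTet2/3, or 2.51-fold lower. Only 0.605% of all genes above the floor had a lower difference. Mrpl17, the counterpart of a bacterial protein near the tunnel through which the new chain leaves, read 10.30 and 9.25, or 2.07-fold lower, and 2.41% of all genes had a lower difference. These 2 genes lay above 8.31 log2 units on both arrays, a level that only 5% of negative-control probes exceed on either array, and they were the only members past 2-fold. At 2-fold, 3.05% of all genes were lower and 1.81% higher.

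The small-subunit gene Mrps17, which encodes a protein bound to the ribosomal RNA, read 8.65 and 7.71 log2 units (1.92-fold lower). Mrpl46, which encodes a protein of the central protuberance on the head of the large subunit, read 8.14 and 7.21 (1.90-fold lower). Mrpl12, which encodes the stalk protein that translation factors dock on, read 6.37 and 5.59 (1.72-fold lower). Its partner Mrpl10, which holds Mrpl12 to the ribosome, was 1.58-fold lower, from 8.91 to 8.26 log2 units. These 2 genes of the stalk were on the same side, while Mrpl53, another protein of that region, differed by -0.04. Mrpl46 and Mrpl12 lay on both arrays below the 8.31 log2 units of the negative-control probes.

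Of the remaining members counted as lower, 3 lay just past the limit. Mrps24, which corresponds to a bacterial protein at the entry of the messenger RNA channel, read 5.72 and 5.10 log2 units, the latter close to the floor (1.53-fold lower). The tunnel-lining protein gene Mrpl22 read 8.67 and 8.07 (1.52-fold lower). Mrpl32, whose protein is cut to its mature form inside mitochondria before assembly, read 6.94 and 6.34 (1.51-fold lower). After centring on the median difference of all genes none of these 3 was past 1.5-fold. That left 6 lower members (9.68%) against 11.1% of all genes, and 2 higher (3.23%) against 10.4%. Mrps24 and Mrpl32 also lay on both arrays below the level of the negative-control probes.

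The higher members were Mrpl23 and Mrpl20. Mrpl23, the counterpart of a bacterial protein at the tunnel exit, read 5.17 log2 units in the control and 5.88 in siTet2/3 (1.64-fold higher). Mrpl20, whose bacterial counterpart joins the large subunit early in assembly, read 5.76 and 6.43 (1.59-fold higher). A higher difference than that of Mrpl23 was seen in 5.64% of all genes above the floor. Next in this direction, and short of the limit, were Mrpl1 (0.45 log2 units), Mrpl19 (0.40), Mrpl15 (0.39) and Mrps27 (0.38), the last a protein with pentatricopeptide repeats. All of them lay on both arrays below the level of the negative-control probes.

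The 4 members below the floor on both arrays were Mrps16, Mrps26, Mrps34 and Mrpl48, and they have no interpretable fold. Mrps16 read 3.47 and 3.46 log2 units, Mrps26 4.03 and 4.59, and Mrps34 5.00 and 4.56. Mrpl48, of the central protuberance, read 3.99 and 4.97, just under the floor in siTet2/3. Mrps12, which encodes a protein of the decoding centre, passed the floor in the control (5.21) and not in siTet2/3 (5.02).

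With the floor raised to 8.31 log2 units on at least 1 array, 28 members were left, of which 5 were at least 1.5-fold lower (17.9%) and 0 higher, where 11.0% and 6.01% of the 4124 genes past that level were. A gene could pass this level through the array on which it was higher, and 3 of the 5 lower members, Mrps17, Mrpl10 and Mrpl22, passed it in the control only. Of the 28, 5 passed in the control only, all of them below 0, and 2 (Mrpl4 and Mrpl13) in siTet2/3 only. Nothing about a dependence on level was therefore read from these counts. The remaining 21 passed on both arrays, with Mrpl57 and Mrpl17 lower.

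**Figure D2:**
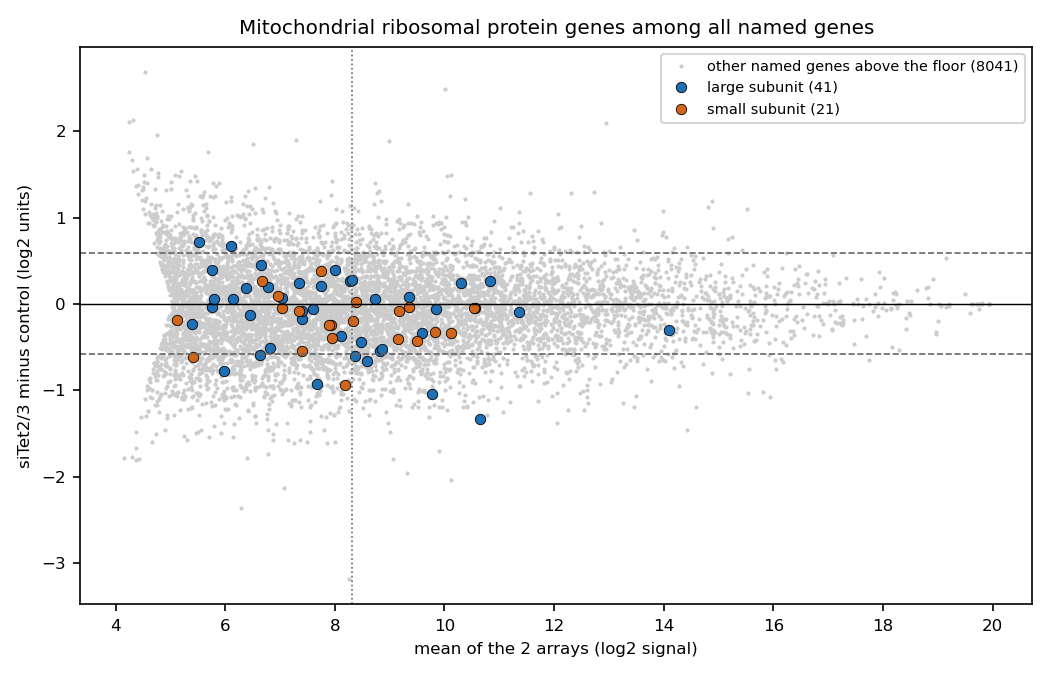
Difference between the arrays (log2 units) against the mean of the 2 arrays (log2 signal) for the 62 members above the floor, coloured by subunit, among the other named genes above it (grey). Dashed lines mark 1.5-fold and the dotted line the 8.31 log2 units of the negative-control probes; the members lie within the spread of the grey points.

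The genes of the large and the small subunit overlapped, with the wider spread in the large. Of 41 above the floor, 7 were lower (17.1%) and 2 higher (4.88%), against 13.2% and 8.63% of all genes. The median of these 41 was -0.06 log2 units and their robust SD 0.44. Of 21 genes named for the small subunit, 2 were lower and 0 higher, with a median of -0.20 and a robust SD of 0.25. Below 0 were 17 of the 21 (81.0%), against 55.0% of all genes, and 14 of the 21 after centring. The differences ran from -1.33 to 0.71 in the large subunit and from -0.94 to 0.38 in the small, and the difference between the subunits was not tested. Mrps30 (8.38 log2 units in the control and 8.40 in siTet2/3) and Mrps18a (9.36 and 8.95) carry small-subunit symbols, yet their proteins sit in the large subunit of the mammalian mitochondrial ribosome. With both moved to the large subunit the medians were still -0.06 and -0.20.

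Within the small subunit, genes with a bacterial counterpart lay on the lower side by small amounts. All 13 above the floor were below 0, against 55.0% of all genes, with a median of -0.24 log2 units against -0.05. After centring or removal of a trend on level, 10 of the 13 were below 0. With the trend removed, 49.7% of all genes were. Only Mrps17 and Mrps24 were past 1.5-fold (15.4%), a share close to the 13.2% of all genes that were lower. Mrps2 (-0.55), Mrps7 (-0.43) and Mrps21 (-0.33) came next, and Mrps9 (-0.03) and Mrps15 (-0.05) were nearest to 0. Mrps18b (-0.20) was counted in this class, whereas Mrps18a was counted among the genes found only in mitochondria. The classes were not recomputed with Mrps18b moved. The 6 genes above the floor found only in mitochondria had a median of 0.00, with none past 1.5-fold. They ran from Mrps25 at -0.40 to Mrps27 at 0.38, with 3 above 0 and 3 below. Mrps26 and Mrps34, also of this class, were below the floor. The 5 ribosomal proteins with other symbols, from -0.64 to 0.38, were not placed in these classes. The difference between the classes was not tested.

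Within the large subunit, that split showed no such gap. The 25 genes with a bacterial counterpart had a median of -0.06 log2 units, with 5 lower (20.0%) and 2 higher (8.0%). The 18 genes found only in mitochondria had a median of -0.07, with 2 lower (11.1%) and 0 higher. Of all genes, 13.2% were lower and 8.63% higher. Mrpl48 of the central protuberance was below the floor, and of the other 7 genes there Mrpl46 alone was past 1.5-fold. Mrpl58 (-0.55), which encodes a peptidyl-tRNA hydrolase that rescues stalled ribosomes, and Mrpl55 (-0.53) came close, Mrpl27 lay at -0.38, and Mrpl38 (0.24), Mrpl40 (0.18) and Mrpl18 (0.06) were above 0. The 5 genes around the exit tunnel went both ways, with Mrpl17 and Mrpl22 lower, Mrpl23 higher, and Mrpl45, which faces the inner membrane, and Mrpl47 at -0.09 and 0.07. The stalk had a median of -0.66, from 3 genes only.

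**Figure D3:**
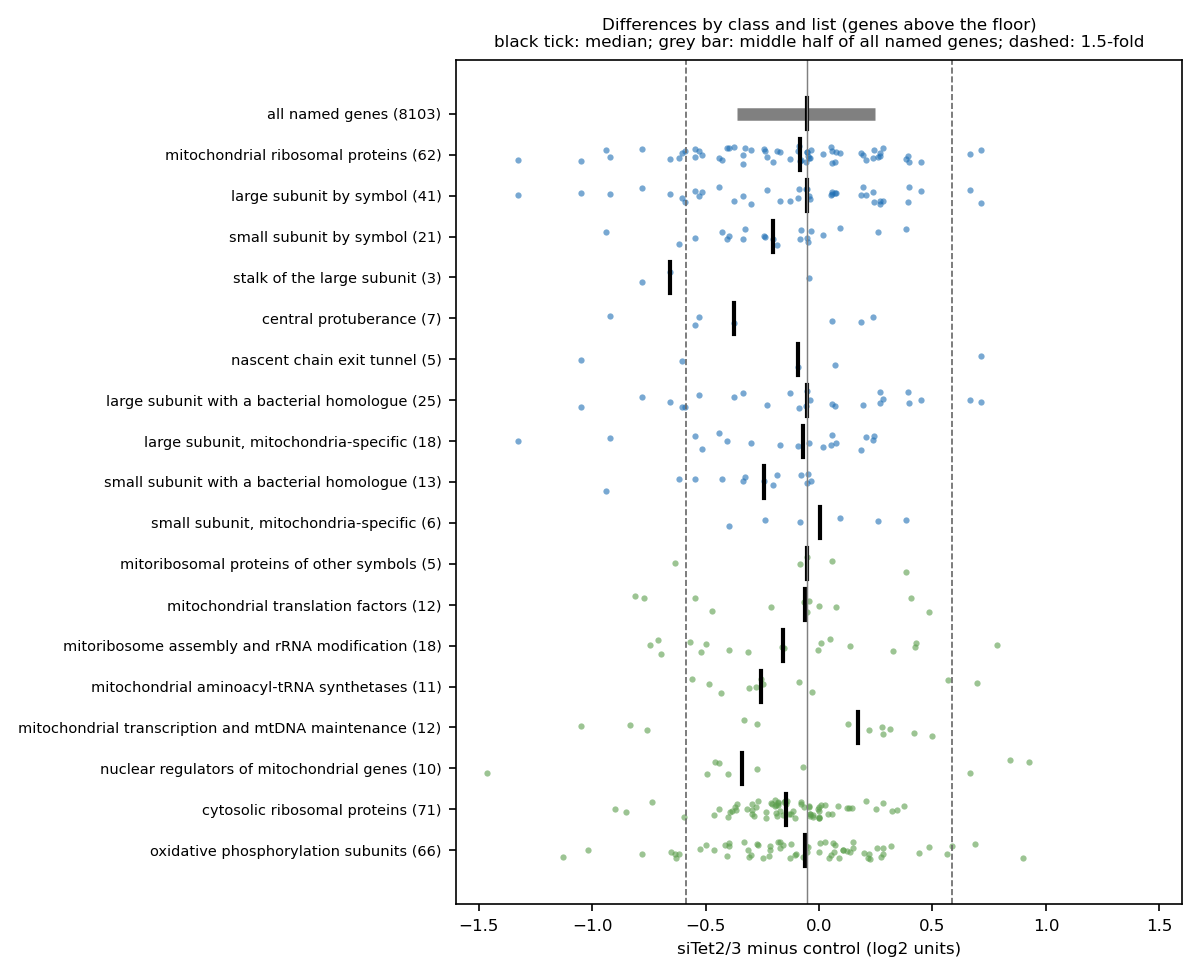
Differences between the arrays (log2 units) of genes above the floor, by class of the mitochondrial ribosome (blue) and by related list (green), with the number of genes in parentheses. Each point is 1 gene, black ticks are medians, the grey bar is the middle 50% of all named genes, the grey line their median of -0.05 and dashed lines 1.5-fold; on this scale all 13 points of the small-subunit class with a bacterial counterpart lie below 0, against 10 after centring or removal of the trend.

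Genes that work with the mitochondrial ribosome were also mixed. The shares given for these and the following lists stand beside 13.2% lower and 8.63% higher among all genes above the floor. Among 5 ribosomal proteins with other symbols, Dap3, which encodes a GTP-binding protein of the small subunit, was 1.55-fold lower (9.14 and 8.50 log2 units), and the list median was -0.05. Of 12 translation factors above the floor, 2 were lower (16.7%) and 0 higher, with a median of -0.06. These were the release factor gene Mtrf1l (1.76-fold; 6.47 and 5.66) and the initiation factor gene Mtif3 (1.71-fold; 8.31 and 7.53), while the elongation factor gene Tufm differed by 0.00.

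Of 18 genes for assembly of the mitochondrial ribosome and modification of its RNA, 3 were lower (16.7%) and 1 higher (5.56%). Their median was -0.16 log2 units. Ngrn was 1.68-fold lower and the ribose methyltransferase gene Mrm2 1.62-fold lower. Mrm3, a related methyltransferase gene, was below the floor in siTet2/3. It was counted as lower on its values as read (1.64-fold), while its bound against the floor was 1.33-fold, short of the limit. The pseudouridine synthase gene Rpusd4 was 1.72-fold higher, from 5.28 log2 units. Of 11 mitochondrial aminoacyl-tRNA synthetase genes (with the related amidotransferase subunits), only Rars2 was higher (9.09%), by 1.62-fold, and none was lower, with a median of -0.26.

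Of 12 genes for transcription and upkeep of mitochondrial DNA, 3 were lower and 0 higher, yet the median was 0.17 log2 units while the mean was -0.09. Polg, the catalytic subunit of the mitochondrial DNA polymerase, was 2.07-fold lower (8.24 and 7.19), the transcription termination factor gene Mterf1 1.78-fold and the nuclease gene Mgme1 1.69-fold. Tfam, which packages mitochondrial DNA and starts its transcription, was at 0.42.

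The nuclear regulators known for acting on such genes went in opposite directions. Of 10 above the floor, 3 were higher (30.0%) and 1 lower (10.0%). Yy1 was 1.90-fold higher (7.55 and 8.47 log2 units) and Gabpa, the DNA-binding part of GABP, 1.59-fold higher (12.22 and 12.88). Atf5 was below the floor in the control. It was counted as higher on its values as read (1.79-fold), while its bound against the floor was 1.24-fold, short of the limit. Esrra, which encodes an orphan nuclear receptor, was at least 2.38-fold lower, being below the floor in siTet2/3 (6.29 and 4.83). Nrf1 differed by -0.44, Gabpb1 by -0.49 and Myc by -0.28, and the list median was -0.34.

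Cytosolic ribosomal proteins, the counterparts outside mitochondria, had 4 of 71 genes lower (5.63%) and 0 higher, with a median of -0.15 log2 units and a robust SD of 0.21. The largest differences were those of Rpl29 (1.87-fold lower), the paralogue Rpl22l1 (1.80-fold) and Rpl18 (1.66-fold). Some of these genes reached 19.93 log2 units, where the deposited values end and a difference cannot show. Below that level, Rpl4 (19.79), Rplp1 (19.21) and Rpl21 (18.85) also had the same value on both arrays, and the reason was not tested. Subunits of oxidative phosphorylation, which mitochondrial translation serves, had 7 of 66 genes lower (10.6%) and 3 higher (4.55%), with a median of -0.06. Lower were the ATP synthase gene Atp5mc1 (2.19-fold), the complex I gene Ndufs7 (at least 1.53-fold) and the complex III gene Uqcrfs1 (1.72-fold). The ATP synthase gene Atp5po was 1.87-fold higher, the complex I gene Ndufa5 1.61-fold, and Atp5mg, at 0.59 log2 units, lay just past the limit.

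The promoter letters were then set beside these values. RefSeq windows of 300 bases (250 before the start and 50 after) were found for 55 members, as 57 windows. The ETS motif CCGGAAG was found on either strand in 33.3% of the member windows, against 8.75% of all 33469 windows and 20.4% of windows of named genes above the floor. The YY1 motif AAGATGGC was in 22.8%, against 3.17% and 6.08%. For the NRF1 motif the shares were 15.8%, 4.25% and 11.1%, and for the E-box CACGTG, which Myc binds, 10.5%, 6.42% and 9.71%. None of these motifs contains another. The median window of the members held 18 CpG dinucleotides, against 22 for named genes above the floor and 7 for all windows, where CpG is the form of cytosine that is methylated. A match is a run of letters and was not shown to be a bound site.

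Members with and without these letters overlapped widely. The 8 members above the floor with the NRF1 motif had a median of -0.15 log2 units and included 3 of the lower genes, Mrpl57, Mrpl17 and Mrpl32, whereas the 44 without it had a median of -0.11 with 5 lower. Among all genes above the floor with a window, 14.5% of those with the NRF1 motif and 13.0% of those without it were lower. The result moved with how that motif was written: its 7-letter core GCATGCG, tried afterwards and overlapping the longer form, was found in 6 members above the floor with a median of -0.60, of which Mrpl10, Mrpl17, Mrpl22 and Mrpl32 were lower, against 11.6% of all genes with the core. The 17 members with the ETS motif had a median of -0.13, with 1 lower (Mrpl57) and both higher genes, Mrpl20 and Mrpl23. The 35 without it had a median of -0.09 with 7 lower and 0 higher. Among all genes above the floor with a window, 13.2% of those with the ETS motif were lower and 6.2% higher, against 13.1% and 9.32% of those without it. In Mrpl20 this match lies in the 50 bases after the start and is not in the printed stretch. The 12 members with the YY1 motif had a median of -0.25, with 2 lower (16.7%). The 40 without it had a median of -0.09, with 6 lower (15.0%). Among all genes above the floor with a window, those medians were -0.10 and -0.05. The 6 members with the E-box had a median of -0.07 and the 46 without it -0.15, against -0.091 and -0.045 among all such genes.

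Several members start head to head with another protein-coding gene. A start on the opposite strand within 1000 bases was found for 16 pairs, 11 of which had both genes above the floor. The genes of a pair had differences of the same sign in 6 pairs and of opposite sign in 5. Mrpl27 and Eme1, whose starts lie 44 bases apart, read nearly alike, at -0.38 and -0.40 log2 units. Mrpl49 and Fau, which encodes a precursor of a cytosolic ribosomal protein, were at 0.07 and 0.01, with 186 bases between the starts. The widest gaps were those of Mrpl32 (-0.59) and the proteasome gene Psma2 (0.31), 210 bases apart, and of Mrpl46 (-0.92) and Mrps11 (-0.05), whose shared upstream stretch of 233 bases is printed above. Mrps11 read 7.06 log2 units in the control and 7.01 in siTet2/3. The median gap within a pair was 0.23 log2 units. Gaps and signs were not computed for other pairs of genes, so whether these pairs were closer than others was not tested.

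**Figure D4:**
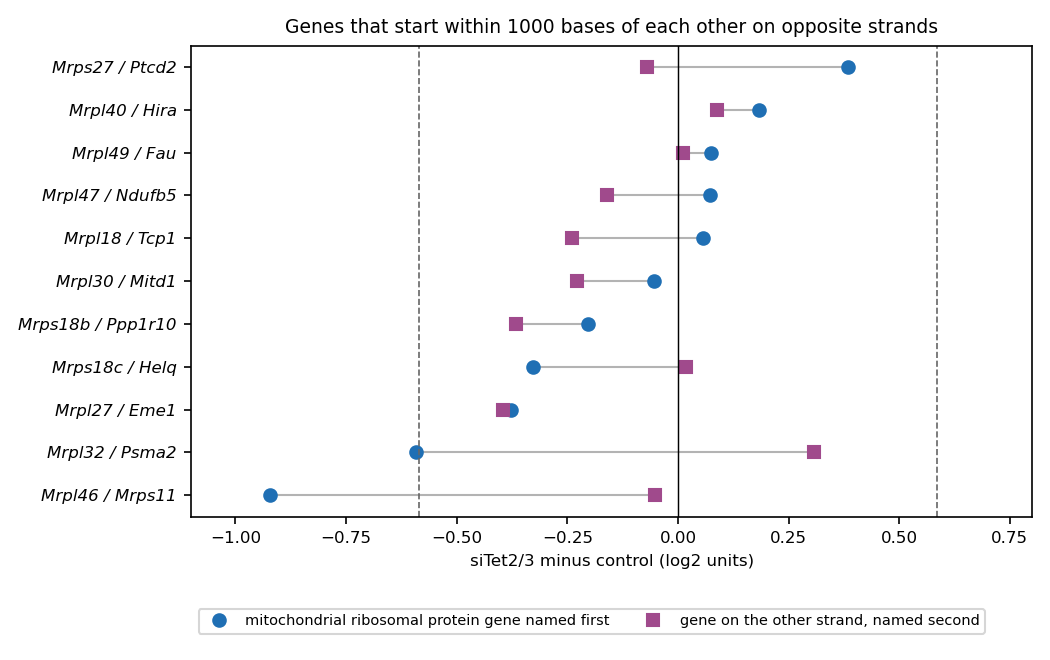
Differences between the arrays (log2 units) of the 11 pairs of genes that start within 1000 bases of each other on opposite strands, with both genes above the floor. Circles are the mitochondrial ribosomal protein genes named first, squares the gene named second, grey lines join a pair and dashed lines mark 1.5-fold; the gap runs from 0.02 for Mrpl27 and Eme1 to 0.90 for Mrpl32 and Psma2.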

How the data were processed

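Total RNA of the 2 cultures was hybridised to 1 biotin-labelled whole-transcript array each. The authors deposited log2 signals, 1 value per probe set and array. RMA, which corrects background, equalises the arrays' distributions and summarises probes, and the Transcriptome Analysis Console are named in the submitters' processing notes; for versions, settings and genome build, the sources used here give nothing. Medians over gene probes were 4.84 log2 units (control) and 4.89 (siTet2/3), so differences are relative to the bulk of genes and a change in total RNA per cell would not show. There were 0 columns of unknown samples.

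Of 23188 gene probes, 15049 had 1 gene symbol in the platform annotation, 0 several and 8139 none. They covered 15037 genes, with probes averaged for 10 genes; every member had 1 probe set. The 66 member identifiers all carried the same symbol in RefSeq (GRCr8). Control values were subtracted from siTet2/3 values for each gene with Python 3.11.15 and pandas 2.3.3, with no test, as there was 1 array per group. Where 1 array was below the floor, the fold given was computed against the floor and is a lower bound. Counts of higher and lower genes, for the lists and for all genes, used the 2 values as read and not this bound. Counting was tested on simulated data.

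Members, lists and structural classes were chosen with earlier results of these data known. Named were all members past 1.5-fold, the 6 largest differences in each direction, members below the floor, and for each other list up to 3 genes in each direction past 1.5-fold or else the largest; further members were named beside their class after their values were seen, and the promoter motifs, the printed promoters and the 1000-base limit for neighbours were also chosen then. The alternatives tried were: the floor omitted, raised by 1 log2 unit, or taken from 1153 negative-control probes, both arrays above the floor, centring on the median, subtraction of a loess curve against level (limma 3.58.1, span 0.3), the brightest probe, a 2-fold limit, means, and other member lists.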

Additional observations from a re-analysis of the deposited data

How the results depend on the processing

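No paired analysis was possible because each group had 1 array, and none could be left out. A median was taken to move where it shifted by 0.1 log2 units or more, a count where it changed by over 1.5 times. Of 44 alternative values for the members and the subunits, 36 did not move. With the negative-control floor the members' median moved from -0.09 to -0.25 log2 units, the large-subunit median from -0.06 to -0.20, the lower members from 9 to 5 and the higher ones from 2 to 0, with 28 members left, some of which passed that floor only on the array where they were higher. With a floor 1 log2 unit higher, 1 member was higher, and at 2-fold 0 were higher and 2 lower. With the loess trend removed the large-subunit median turned to 0.013 and that of its genes with a bacterial counterpart to 0.015, the translation factors to 0.0070 and the ribosomal proteins of other symbols to 0.029 (0.0013 when centred on the median). The lower members numbered 7 with the trend removed and 6 when centred. Assembly genes had a median of 0.14 with the negative-control floor, over 5 genes, and the mitochondrial DNA genes a mean of -0.092. The cause of these shifts was not tested. A higher floor also leaves fewer genes. Other medians of classes and lists kept their sign under the alternatives listed, but some moved in size. As means, the synthetase genes were at -0.13 in place of -0.26, the nuclear regulators at -0.12 in place of -0.34 and the translation factors at -0.17 in place of -0.06. The central protuberance moved from -0.38 to -0.16 with no floor and to -0.53 with the negative-control floor, and the exit tunnel from -0.09 to -0.35 with the floor 1 log2 unit higher and to -0.60 with the negative-control floor. With that last floor the large-subunit genes with a bacterial counterpart were at -0.19 and those found only in mitochondria at -0.20. The spread of replicates is unknown, and signal near the background limits the 34 members below the level of the negative-control probes.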

Other observations

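Processed pseudogenes can share letters with a probe set for their parent gene. RefSeq (GRCr8) lists 40 pseudogenes named for mitochondrial ribosomal protein genes, and 21 of the 66 members have at least 1. Mrpl30 has 9, and it differed by -0.06 log2 units between the arrays. Of the 9 lower members, Mrpl17, Mrpl46, Mrps17 and Mrpl32 have such a copy, and of the 2 higher ones Mrpl23 has. Of the 20 members above the floor with a copy, 4 were lower (20.0%), with a median of -0.22 log2 units. Of the 42 without one, 5 were lower (11.9%), with a median of -0.07. Among all genes above the floor 13.2% were lower, with a median of -0.05. The difference between members with and without a copy was not tested. Whether the probe sets read any of these copies was not tested.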
